A study of Mus musculus with 6 samples.

Results

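In brain RNA of mice given trimethylamine N-oxide (TMAO), 48 protein-coding genes were higher in each of the 3 TMAO libraries than in any of the 3 vehicle libraries. They were chosen from 36758 genes on exactly those values. The lowest TMAO value had to be at least 5 FPKM, a fragment count scaled for gene length and sequencing depth, and at least 125% of the highest vehicle value. Both thresholds were met by 78 genes, or 1.1% of the 7101 genes whose lowest TMAO value reached 5 FPKM. Of these 78, 30 were left out by name: 17 predicted, microRNA or Rik genes, 9 ion channel and receptor genes, and the single genes Timp4, Ogt, Gpr17 and Slco1a4. The remaining 48 genes are 0.676% of the 7101. Because the values of all 6 libraries chose the genes, their differences are given below as descriptions, without tests.

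The TMAO libraries came from C57BL/6J mice that received 0.12% TMAO daily over 16 weeks, and the vehicle libraries from C57BL/6J mice that received water over the same time. The series' design text gives an age of 6 months. The labels name brain as the tissue and microglia, the brain's own immune cells, as the cell type. TMAO is an oxidation product, made by the liver, of the trimethylamine that intestinal bacteria release from dietary choline. The series' title concerns microglial inflammation and stroke, and the labels describe no surgery. The labels do not say whether a group's libraries are separate animals, and the extract protocol speaks of pooled RNA, so the spread between libraries may be technical.

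Several of the 48 genes have known roles in neurons. Roles were grouped after the values were seen and were not counted over the 7101 genes, so they are background and no trait of the set. Neurons pass signals from membrane receptors to calcium-dependent kinases and to small GTPases, which are switched on by guanine nucleotide exchange factors and which shape the actin skeleton of dendrites and spines. Other genes of the set encode transcription factors, RNA-processing proteins and metabolic enzymes. None of the 48 is in the lists of cell type markers used here. The set is only 0.676% of the 7101 genes whose lowest TMAO value reached 5 FPKM, so absence from such short lists says little about cell types.

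Neuron markers gave larger sums than microglia markers in all 6 libraries, although the labels name microglia. The 15 neuron markers summed to 1402 to 1642 FPKM in the TMAO libraries, against 510, 1324 and 1402 FPKM in vehicle replicates 1, 2 and 3. For the 10 microglia markers the sums were 112 to 126 FPKM in the TMAO libraries, against 267, 141 and 106 FPKM in vehicle replicates 1, 2 and 3. Vehicle replicate 1 stood apart: its log2 values correlated with the other libraries at 0.804 to 0.896 across genes, which are not independent replicates, against 0.959 to 0.986 among the remaining 5. It had the largest sum of the 6 libraries in every marker list except the neuron list, in which it had the smallest. Endothelial markers summed to 139 to 164 FPKM in the TMAO libraries, against 513, 230 and 159 FPKM in vehicle replicates 1, 2 and 3, and border macrophage markers to 3.32 to 6.59 FPKM in the TMAO libraries, against 73.8, 15.8 and 4.72 FPKM in the same vehicle libraries. Erythroid markers summed to 80.7 to 110 FPKM in the TMAO libraries and to 602, 267 and 196 FPKM in vehicle replicates 1, 2 and 3. Oligodendrocyte markers summed to 405 to 651 FPKM in the TMAO libraries, against 780 to 944 FPKM in the vehicle libraries, without overlap. The erythroid sums did not overlap either. Nor did those of neutrophil markers (TMAO 3.39 to 7.61, vehicle 13.8 to 121 FPKM) and oligodendrocyte precursor markers (TMAO 52.9 to 62.3, vehicle 64.3 to 110 FPKM). All of these were lower in TMAO. The neuron sums went the other way, the lowest TMAO sum, 1402.1 FPKM, being barely above the highest vehicle sum, 1401.8 FPKM. The part of these marker differences in the values below was not tested. In bulk RNA, fewer cells of a type and less RNA per cell cannot be told apart.

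To show the DNA next to genes that separated the groups widely, the 200 bases before the gene are printed 5′ to 3′ for 4 of the 12 genes with the widest separation. They are RefSeq sequences of GRCm38.p6, written on the strand of the gene, and the 4 were picked after their sequences were seen. Capitals mark a D-box (TTATGTAA) in Rskr at chr11:78290641-78290840 on the plus strand, a CCAAT box on the opposite strand in Sult1a1 at chr7:126676433-126676632 on the minus strand, 4 GC boxes (GGGCGG on the opposite strand) in Pdzd2 at chr15:12739925-12740124 on the minus strand, and 1 GC box in Btbd3 at chr2:138256365-138256564 on the plus strand.
Rskr: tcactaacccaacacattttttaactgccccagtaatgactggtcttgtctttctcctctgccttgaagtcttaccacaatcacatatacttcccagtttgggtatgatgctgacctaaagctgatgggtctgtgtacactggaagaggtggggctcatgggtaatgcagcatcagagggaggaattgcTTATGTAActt
Sult1a1: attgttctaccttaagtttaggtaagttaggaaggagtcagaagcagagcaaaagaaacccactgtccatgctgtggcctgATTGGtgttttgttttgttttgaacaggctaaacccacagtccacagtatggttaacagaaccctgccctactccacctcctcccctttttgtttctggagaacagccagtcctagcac
Pdzd2: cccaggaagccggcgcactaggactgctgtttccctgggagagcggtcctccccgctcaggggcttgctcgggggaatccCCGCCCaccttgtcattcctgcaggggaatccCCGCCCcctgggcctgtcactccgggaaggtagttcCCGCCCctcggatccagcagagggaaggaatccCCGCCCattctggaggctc
Btbd3: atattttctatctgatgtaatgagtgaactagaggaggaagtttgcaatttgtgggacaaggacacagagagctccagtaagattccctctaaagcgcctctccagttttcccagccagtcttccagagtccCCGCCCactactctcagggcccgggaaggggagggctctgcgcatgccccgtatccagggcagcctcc
These stretches differ in composition. Pdzd2 has 67.5% G and C and 11 CpG pairs in its 200 bases, and Btbd3 has 54.5% and 5. Sult1a1 and Rskr have 46.0% and 45.0%, and neither has a CpG pair.

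Over the whole set, the windows of 250 bases before to 50 bases after the RefSeq start were found for 36 of the 48 genes and for 5388 of the genes at or above the 5 FPKM floor. Where a gene had several starts, a motif counted if any of its windows held it, on either strand. The median number of CpG pairs per window was 14.5 in the 36 genes and 22 in the 5388 genes, while the median G and C content was 62.5% and 62.0%. The GC box GGGCGG was in 20 of the 36 genes, or 55.6%, in 72.7% of the 5388 genes and in 35.7% of all promoter windows of the table. CCAAT was in 13 genes (36.1%), against 43.0% of the 5388 and 37.4% of all windows. TATAAA was in 2 genes (5.56%), Rgs4 and Syne1, against 7.81% and 13.6%. The cAMP response element TGACGTCA was in Hlf and Peg3 (5.56%), against 3.82% and 1.79%. The E-box CACGTG was in Acot11, Cadps2 and Rasgrf2 (8.33%), against 12.8% and 7.15%. The D-box was in Rskr alone of the 36 (2.78%), against 0.742% and 0.938%. The NRF1 core GCGCATGCG was in 0 of the 36 genes, against 4.62% and 1.75%. A match describes letters and is not a binding site, and no match says only that the letters are not in this window.

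**Figure D1:**
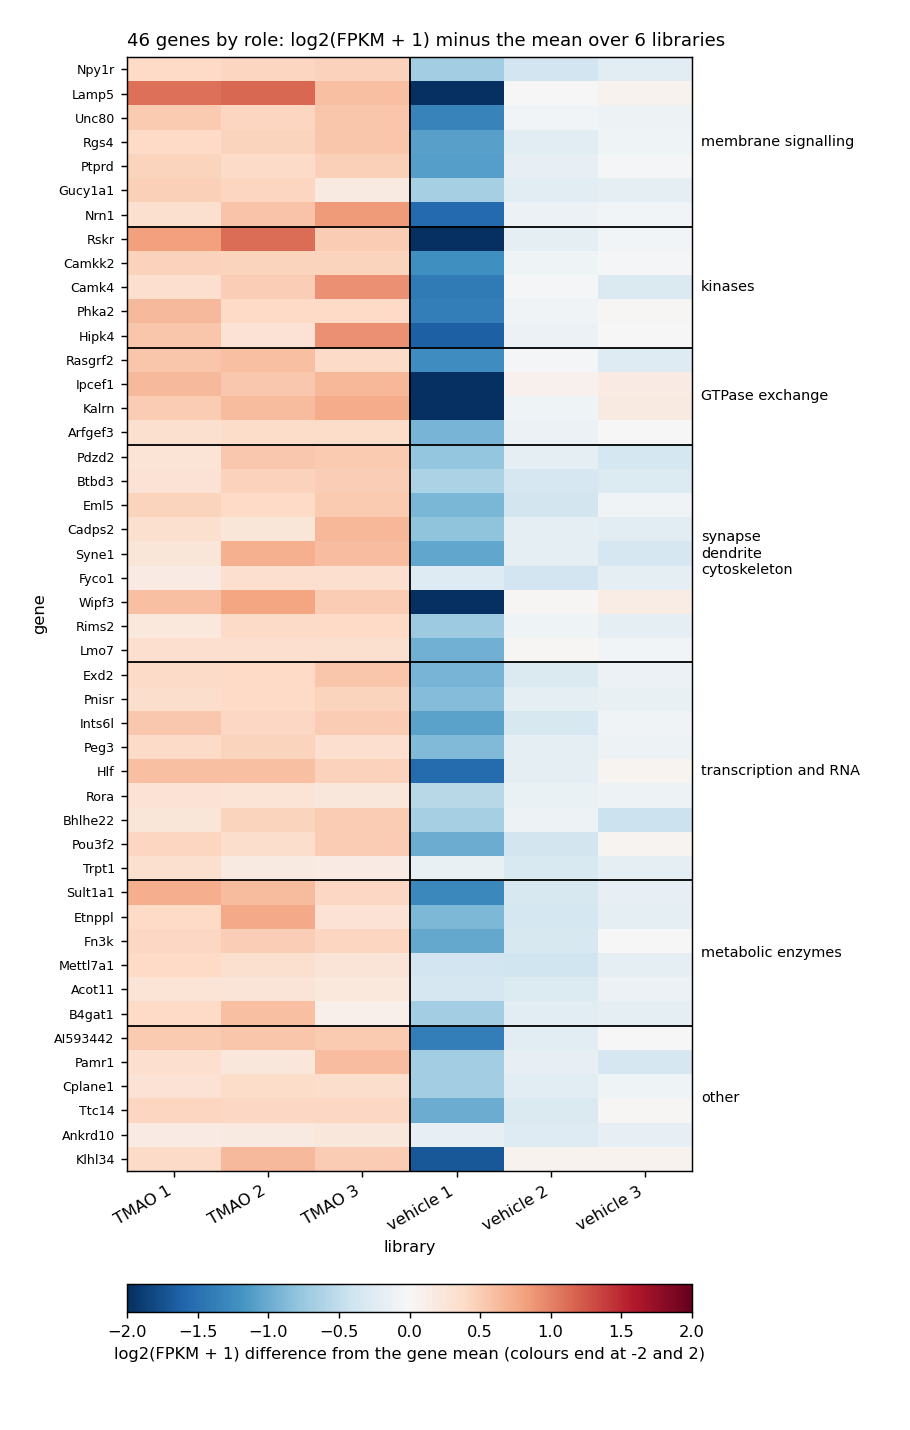
For 46 of the 48 genes, each cell is the log2(FPKM + 1) of a gene (rows, grouped by role) in a library (columns, TMAO left of vehicle) minus that gene's mean over the 6 libraries; colours end at -2 and 2. All TMAO cells are red because the genes were chosen that way, and vehicle replicate 1 is the bluest column in nearly all of them.

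Within the vehicle group, replicate 1 was low in most of the 48 genes. These are the values that the rule used: capping the highest vehicle value keeps genes in which a library that stands apart is low and drops those in which it is high. Vehicle replicate 1 was the lowest vehicle library in 44 of the 48 genes, against 49.0% of the 7101 genes at or above the floor. It lay under 0.5 times the mean of vehicle replicates 2 and 3 in 21 of the 48 genes (43.8%), and in 860 of the 7101 (12.1%). Vehicle replicate 3 was the highest vehicle library in 36 genes, vehicle replicate 2 in 10 and vehicle replicate 1 in 2, Ankrd10 and Trpt1. The mean of the TMAO libraries over the mean of the vehicle libraries had a median of 1.9 across the 48 genes, with a range of 1.36 to 3.25. Against vehicle replicates 2 and 3 alone the median was 1.57, with a range of 1.31 to 2.21. Over all 7101 genes the same medians were 1.003 and 0.987. The separation ratio, the lowest TMAO value over the highest vehicle value, was 1.35 at the median and 1.64 at most, and leaving out vehicle replicate 1 left it as it was in 46 of the 48 genes.

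The TMAO libraries were spread about as in other genes. The highest TMAO value was 1.13 times the lowest at the median over the 48 genes and 1.14 times over the 7101, and it was within 125% of the lowest in 37 of the 48 (77.1%) and in 80.6% of the 7101. TMAO replicate 3 was the highest TMAO library in 22 genes, TMAO replicate 2 in 16 and TMAO replicate 1 in 10. The widest spreads were in Hipk4, Rskr and Camk4, where the highest TMAO value was 1.62, 1.60 and 1.58 times the lowest.

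**Figure D2:**
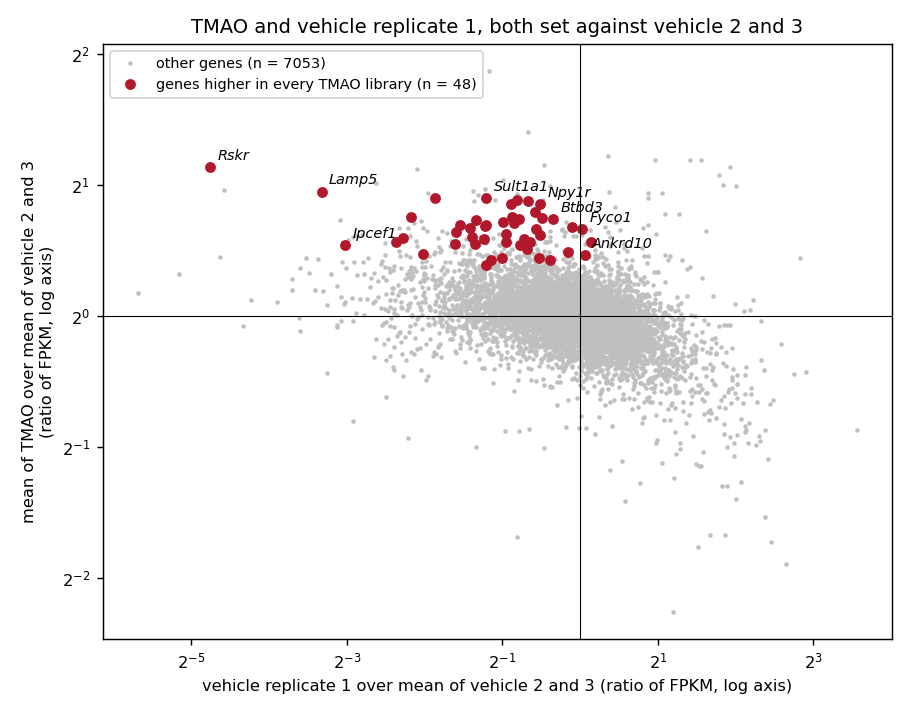
Each point is a gene whose lowest TMAO value is at least 5 FPKM (n = 7101); the x axis is vehicle replicate 1 over the mean of vehicle replicates 2 and 3, and the y axis the mean of the TMAO libraries over the same mean, both as ratios of FPKM on log axes, with the 48 genes in red. The 48 genes lie between 1.31 and 2.21 on the y axis, and most lie left of 1 on the x axis, down to 0.037 in Rskr.

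Among the genes that act at the cell membrane, Npy1r had the widest separation of all 48. It encodes a receptor for neuropeptide Y that couples to inhibitory G proteins. Npy1r was at 7.14, 7.32 and 7.57 FPKM in TMAO replicates 1 to 3, against 2.85, 3.77 and 4.34 FPKM in vehicle replicates 1 to 3. The 3 TMAO values lay within a narrow band, well above the highest vehicle library, and the difference on log2(FPKM + 1) was 0.85 (SE 0.14). Rgs4, which speeds the switching off of G protein alpha subunits, had the highest level of the set. Rgs4 was at 92.7, 96.2 and 104 FPKM in the TMAO libraries, against 32.4, 60.2 and 65.8 FPKM in vehicle replicates 1, 2 and 3. The vehicle mean was pulled down by replicate 1, and the TMAO mean was 1.85 times the mean of all vehicle libraries and 1.55 times that of replicates 2 and 3. Lamp5, a lysosome-associated membrane protein of neurons that marks a class of cortical interneurons, was at 63.1, 65.2 and 44.2 FPKM in the TMAO libraries, against 2.97, 29.0 and 30.5 FPKM in vehicle replicates 1, 2 and 3. Vehicle replicate 1 was at 0.0998 times the mean of the other two vehicle libraries, so the log2 difference of 1.89 (SE 0.81) was 0.91 without it.

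In the other membrane genes described here vehicle replicate 1 was again the lowest library. Nrn1 encodes neuritin, a small protein anchored at the neuronal surface that promotes neurite growth. Nrn1 was at 43.8, 52.3 and 63.6 FPKM in the TMAO libraries, against 11.3, 32.0 and 33.6 FPKM in the vehicle libraries. The TMAO values were spread over a wider range than those of Rgs4, and by the rule could not reach down to the vehicle values. Unc80 encodes a subunit of the sodium leak channel complex that sets the resting potential. Unc80 was at 25.2, 23.4 and 25.6 FPKM in the TMAO libraries, against 6.21, 16.6 and 16.0 FPKM in the vehicle libraries. Here vehicle replicate 1 lay far under the other two, which were nearly equal. Ptprd, a receptor-type tyrosine phosphatase that organizes synapses, averaged 10.4 ± 0.405 FPKM in TMAO and 5.59 ± 2.33 FPKM in vehicle (SD, n = 3 each). Gucy1a1, a subunit of the guanylyl cyclase that senses nitric oxide, averaged 15.0 ± 1.75 FPKM in TMAO and 8.83 ± 1.69 FPKM in vehicle.

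Of the kinases, 2 act in 1 calcium-dependent chain: Camkk2 phosphorylates Camk4, a kinase of neuronal nuclei that acts on the transcription factor CREB. Camkk2 was at 15.3, 15.2 and 15.1 FPKM in the TMAO libraries, against 4.07, 10.1 and 10.6 FPKM in the vehicle libraries. The TMAO libraries were almost equal, and the log2 difference was 0.90 (SE 0.33), or 0.51 without vehicle replicate 1. Camk4 was at 6.07, 6.96 and 9.61 FPKM in the TMAO libraries, against 1.11, 4.47 and 3.62 FPKM in the vehicle libraries. TMAO replicate 3 was above the other two TMAO libraries, and vehicle replicate 1 was the lowest library by a wide margin. Rskr encodes a kinase related to ribosomal S6 kinase and had the second widest separation. Rskr was at 8.07, 10.2 and 6.34 FPKM in the TMAO libraries, against 0.137, 3.48 and 3.94 FPKM in the vehicle libraries. Its fold of 3.25 between group means, the highest of the set, was 2.21 against vehicle replicates 2 and 3. The liver-type phosphorylase kinase subunit Phka2 averaged 14.9 ± 1.65 FPKM in TMAO and 7.91 ± 3.97 FPKM in vehicle, and the homeodomain-interacting kinase Hipk4 averaged 9.96 ± 2.42 FPKM in TMAO and 4.36 ± 2.66 FPKM in vehicle (SD, n = 3 each).

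The guanine nucleotide exchange genes were among those with the lowest values in vehicle replicate 1. Kalrn encodes kalirin, an exchange factor that shapes dendritic spines. Kalrn was at 29.3, 32.1 and 34.5 FPKM in the TMAO libraries, against 4.36, 19.1 and 23.1 FPKM in the vehicle libraries. Its log2 difference of 1.26 (SE 0.56) was 0.58 without vehicle replicate 1. Rasgrf2, which activates Ras and Rac on calcium signals, was at 23.9, 24.8 and 21.1 FPKM in the TMAO libraries, against 6.19, 15.5 and 13.1 FPKM in the vehicle libraries. Ipcef1, a partner of the cytohesin exchange factors, was at 13.01, 11.9 and 13.04 FPKM in the TMAO libraries, against 1.07, 8.47 and 8.92 FPKM in the vehicle libraries. In this gene the log2 difference of 1.24 (SE 0.61) was 0.49 without vehicle replicate 1. Arfgef3 averaged 13.3 ± 0.297 FPKM in TMAO and 8.13 ± 2.85 FPKM in vehicle (SD, n = 3 each).

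Synapses, dendrites and the cytoskeleton are the sites of action of 9 of the genes. Btbd3 steers dendrites towards active axons in mouse sensory cortex. Btbd3 was at 31.0, 35.0 and 35.8 FPKM in the TMAO libraries, against 16.0, 19.8 and 20.8 FPKM in the vehicle libraries. Vehicle replicate 1 was close to the other vehicle libraries here, so the log2 difference of 0.82 (SE 0.14) moved little, to 0.71, without it. Pdzd2, a protein with several PDZ domains, was at 5.59, 6.92 and 6.84 FPKM in the TMAO libraries, against 2.20, 3.74 and 3.27 FPKM in the vehicle libraries. Syne1 encodes nesprin-1, a large actin-linked protein of the nuclear envelope, with a shorter product found at synapses. Syne1 was at 13.8, 19.4 and 18.1 FPKM in the TMAO libraries, against 5.10, 9.94 and 8.95 FPKM in the vehicle libraries. TMAO replicate 1 was the lowest TMAO library, and above every vehicle library as the rule demands. Wipf3, a partner of WASP proteins in actin assembly, was at 39.0, 44.5 and 36.5 FPKM in the TMAO libraries, against 5.24, 25.8 and 28.2 FPKM in the vehicle libraries. Its vehicle mean of 19.7 ± 12.6 FPKM was pulled down by replicate 1, which lay far under the other vehicle libraries.

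The remaining genes of this group span vesicle release, microtubules and autophagy. Cadps2, which primes dense-core vesicles for release, was at 6.82, 6.36 and 8.91 FPKM in the TMAO libraries, against 2.55, 4.43 and 4.35 FPKM in the vehicle libraries. Eml5, of the microtubule-binding EMAP family, was at 9.51, 9.19 and 10.1 FPKM in the TMAO libraries, against 3.08, 4.99 and 6.35 FPKM in the vehicle libraries. Rims2, a scaffold of the presynaptic active zone, was at 11.04, 12.6 and 12.6 FPKM in the TMAO libraries, against 5.27, 8.77 and 8.12 FPKM in the vehicle libraries. The groups are apart in all 3 genes by the rule, most narrowly in Rims2. Fyco1, an adaptor that carries autophagosomes along microtubules, was at 6.29, 7.20 and 7.14 FPKM in the TMAO libraries, against 4.40, 3.98 and 4.68 FPKM in the vehicle libraries. It is 1 of the 4 genes in which vehicle replicate 2, not replicate 1, was the lowest vehicle library. Lmo7 averaged 7.62 ± 0.0592 FPKM in TMAO and 4.70 ± 1.91 FPKM in vehicle (SD, n = 3 each).

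Among the genes of transcription and RNA, Hlf and Rora belong to the circadian system, as a transcription factor that binds D-boxes and as a nuclear receptor that drives Bmal1. Hlf was at 40.2, 40.3 and 36.4 FPKM in the TMAO libraries, against 8.29, 22.9 and 27.1 FPKM in the vehicle libraries. Its log2 difference of 1.117 (SE 0.42) was 0.62 without vehicle replicate 1. Rora was at 7.43, 7.35 and 7.15 FPKM in the TMAO libraries, against 3.73, 5.32 and 5.45 FPKM in the vehicle libraries. The TMAO values were tight and the log2 difference was 0.52 (SE 0.14). Peg3, an imprinted zinc finger gene expressed from the paternal allele, was at 44.0, 45.8 and 42.3 FPKM in the TMAO libraries, against 17.7, 29.4 and 31.0 FPKM in the vehicle libraries. Pnisr, a nuclear protein with serine and arginine repeats, was at 38.7, 39.9 and 41.0 FPKM in the TMAO libraries, against 16.0, 26.1 and 26.9 FPKM in the vehicle libraries. Both genes were abundant, with the TMAO libraries in a narrow band and vehicle replicate 1 well under the other vehicle libraries. Ints6l, related to a subunit of the Integrator complex, was at 20.6, 18.8 and 20.0 FPKM in the TMAO libraries, against 6.02, 10.9 and 13.1 FPKM in the vehicle libraries. Exd2, an exonuclease, was at 13.6, 13.7 and 15.4 FPKM in the TMAO libraries, against 4.84, 8.17 and 9.26 FPKM in the vehicle libraries.

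The neural transcription factors Pou3f2 and Bhlhe22 and the tRNA phosphotransferase Trpt1 complete that group. Pou3f2 averaged 5.74 ± 0.346 FPKM in TMAO and 2.88 ± 1.35 FPKM in vehicle, and Bhlhe22 averaged 9.79 ± 1.0 FPKM in TMAO and 5.26 ± 1.2 FPKM in vehicle (SD, n = 3 each). Trpt1 was at 7.23, 6.45 and 6.35 FPKM in the TMAO libraries, against 4.96, 4.31 and 4.73 FPKM in the vehicle libraries. In Trpt1 vehicle replicate 1 was the highest vehicle library, and its separation ratio was 1.28 with that library and 1.34 without it.

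The 6 metabolic enzymes differed among themselves in how far vehicle replicate 1 lay from the other vehicle libraries. Sult1a1 transfers sulfate to phenols. Sult1a1 was at 21.7, 20.4 and 17.4 FPKM in the TMAO libraries, against 4.60, 9.97 and 11.2 FPKM in the vehicle libraries. Its log2 difference of 1.19 (SE 0.31) was 0.84 without vehicle replicate 1. Etnppl breaks down phosphoethanolamine and is known from astrocytes. Etnppl was at 7.91, 10.4 and 7.27 FPKM in the TMAO libraries, against 2.62, 4.31 and 4.90 FPKM in the vehicle libraries. The astrocyte markers summed to 841 to 909 FPKM in the TMAO libraries and to 1274, 909 and 819 FPKM in vehicle replicates 1, 2 and 3, so vehicle replicate 1 was low in Etnppl and high in these markers. Mettl7a1, of a family of putative methyltransferases at lipid droplets, was at 11.5, 10.8 and 10.3 FPKM in the TMAO libraries, against 6.31, 6.21 and 7.35 FPKM in the vehicle libraries. Acot11, which cleaves fatty acyl-CoA, was at 12.9, 12.7 and 12.4 FPKM in the TMAO libraries, against 8.08, 8.48 and 9.56 FPKM in the vehicle libraries. In these 2 genes all 3 vehicle libraries lay together, and the log2 differences of 0.64 (SE 0.11) and 0.49 (SE 0.10) were 0.61 and 0.45 without vehicle replicate 1. Mettl7a1 has near-identical copies, so how reads were divided among them is uncertain.

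Fn3k, which removes sugars bound to lysines, averaged 5.28 ± 0.166 FPKM in TMAO and 2.54 ± 1.20 FPKM in vehicle, and was the lowest of the 48 in TMAO. B4gat1, which builds the glycan of dystroglycan, averaged 11.2 ± 2.07 FPKM in TMAO and 6.26 ± 1.32 FPKM in vehicle (SD, n = 3 each).

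**Figure D3:**
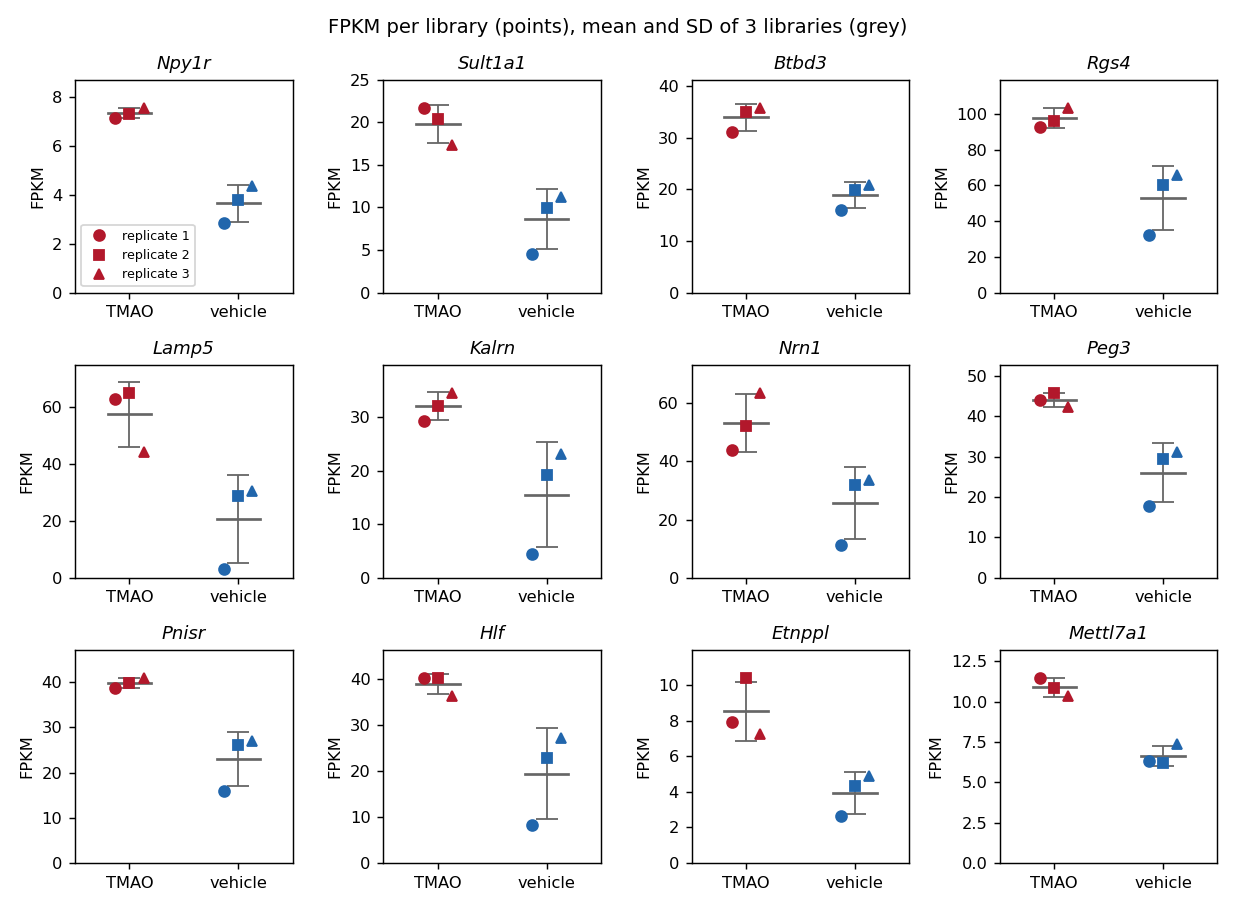
FPKM of 12 of the 48 genes in each library (points, shape by replicate number), with TMAO left of vehicle and the mean and SD of 3 libraries in grey. No panel has overlapping groups, as the rule demands, and vehicle replicate 1 (blue circle) lies lowest in every panel except Mettl7a1, where 6.31 FPKM is just above 6.21 FPKM in vehicle replicate 2.

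The last 6 genes fit no common role. AI593442, which the files name only by its clone, was at 23.5, 24.1 and 23.6 FPKM in the TMAO libraries, against 5.56, 13.8 and 15.9 FPKM in the vehicle libraries. Klhl34, a BTB and kelch gene and the last to enter, was at 18.7, 22.7 and 20.5 FPKM in the TMAO libraries, against 3.65, 14.8 and 14.9 FPKM in the vehicle libraries. Ankrd10, an ankyrin repeat gene, was at 8.11, 8.20 and 8.53 FPKM in the TMAO libraries, against 6.26, 5.75 and 6.25 FPKM in the vehicle libraries. It had the lowest fold of the set, 1.36, and its vehicle libraries lay together. Ttc14, Cplane1 and Pamr1 averaged 22.7 ± 0.235, 8.72 ± 0.303 and 6.35 ± 1.06 FPKM in TMAO, and 12.8 ± 4.64, 5.17 ± 1.26 and 3.26 ± 0.759 FPKM in vehicle (SD, n = 3 each).

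The ratio threshold fell within a continuous run of genes. Just inside it were Hipk4, Rims2, Lmo7 and Klhl34, with separation ratios of 1.260, 1.259, 1.258 and 1.253. Just outside were Adam23, Dcbld2, Lyst and Smg1, at 1.2498, 1.248, 1.247 and 1.246. Krt20, Ccdc39, Slc39a2 and Uggt2 met the ratio and missed the floor, with lowest TMAO values of 4.65, 4.40, 4.26 and 4.22 FPKM. At ratios of at least 1.1, 1.5 and 2 the same rule gave 286, 3 and 0 genes.

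Read the other way, the rule gave more genes with the values as deposited. With the same names dropped, 123 genes were lower in every TMAO library, or 1.85% of the 6631 genes whose lowest vehicle value reached 5 FPKM. The imbalance depended on the scaling: there were 89 higher and 94 lower genes after scaling to the same median, 80 and 97 after quantile normalization, and 64 and 91 after rescaling without mitochondrially encoded genes. Genes reaching the floor were not counted under these scalings, so no shares are given for them. Vehicle replicate 1 was at a median of 0.515 times the mean of the other vehicle libraries in the 48 genes, and at 2.32 times that mean in the 123 genes. Leaving out 1 library loosens the rule by its construction. Without TMAO replicates 1, 2 and 3 it gave 114, 73 and 82 higher genes and 187, 272 and 154 lower genes. The higher genes were 1.55%, 1.01% and 1.13% of the genes then at or above the floor. Without vehicle replicates 1, 2 and 3 it gave 63, 75 and 280 higher genes and 138, 174 and 688 lower genes. These higher genes were 0.887%, 1.06% and 3.94% of the genes at or above the floor. Each of these lists of higher genes contains all 48.

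The test across genes was limma on log2(FPKM + 1), run over the 14206 genes with at least 1 FPKM in 3 libraries. It called 0 genes (0%) at a Benjamini-Hochberg threshold of 0.05, the lowest adjusted p being 0.404. Before adjustment, 687 genes higher in TMAO (4.84%) and 1025 lower (7.22%) had a p under 0.05. The median log2 difference of the 48 genes, whose direction the rule fixed, was 0.87, against -0.027 over all genes tested. Without vehicle replicate 1 these medians were 0.58 and -0.021. In the authors' deposited table, 15 of the 48 genes are marked as significant and up, as are 485 of all 36758 genes (1.32%), among 2346 marked in either direction. The authors' deposited table gives 9 of the 48 a q-value under 0.05, against 64 of all genes that are up (0.174%), and these counts rest on the same 6 libraries that chose the set. The mark does not follow q: in the authors' deposited table Rskr is marked at a q of 0.406 and Btbd3 is not marked at a q of 0.00453. Their deposited log2 folds are 1.70 and 0.848. Among the 48 genes, each marked gene had a deposited log2 fold of at least 1 and a deposited p under 0.05. No unmarked gene of the 48 had both.

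The rest of the pathways to which these genes belong was read from lists of other genes. The lists were chosen with earlier results of these data known, so genes of the set in them are no independent support. The set is 0.676% of the 7101 genes at or above the floor. In the list of postsynaptic scaffold and signalling genes, 5 of 40 were in the set: Camkk2, Camk4, Rasgrf2, Kalrn and Syne1. Of the other 35 genes, 33 had a positive log2 difference, with a median of 0.53, and without vehicle replicate 1 it was 28 of 35 with a median of 0.16. Of 54 genes of synaptic adhesion and axon guidance, none of them in the set, 47 were positive with a median of 0.23, and 39 with a median of 0.13 without vehicle replicate 1. In the vesicle transport and motor list Rims2 was in the set, and 32 of the other 39 genes were positive with a median of 0.36, or 26 with a median of 0.089 without vehicle replicate 1. By limma 0 genes of these 3 lists passed an adjusted p of 0.05. Leaving out the set, the postsynaptic, adhesion and vesicle lists had 1, 8 and 4 higher genes at an unadjusted p under 0.05. The lower genes numbered 1, 0 and 1, among 35, 54 and 39 genes. Over all 14206 genes tested, 4.84% were higher and 7.22% lower at that unadjusted p. The median log2 difference over all genes tested was -0.027, or -0.021 without vehicle replicate 1. The neuron markers, with 10 of 15 positive, had a median of 0.50, and of 0.068 without vehicle replicate 1. The part of this difference in neuronal RNA in the list values was not tested.

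The lists outside the synapse had medians between -0.18 and 0.18. For RNA splicing and RNA-binding genes, with Pnisr in the set, 31 of the other 38 were positive with a median of 0.18, or 28 with a median of 0.098 without vehicle replicate 1. In the circadian list, with Hlf and Rora in the set, 10 of the other 17 were positive with a median of 0.14, which was 0.0033 without vehicle replicate 1. In the fatty acid list, with Acot11 in the set, 11 of the other 41 were positive with a median of -0.18, or 15 with a median of -0.041 without vehicle replicate 1. Of the 44 ubiquitin ligase, 48 chromatin regulator and 35 growth factor genes, 31, 26 and 17 were positive, and the set held none of them. By limma 0 genes of these lists passed an adjusted p of 0.05. Leaving out the set, the RNA, circadian and fatty acid lists had 5, 2 and 1 higher genes at an unadjusted p under 0.05. The lower genes numbered 0, 0 and 2, among 38, 17 and 41 genes. The shares over all 14206 genes tested were 4.84% higher and 7.22% lower.

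The 48 genes were long. In the GENCODE M21 annotation of GRCm38 their median gene length was 53.9 kb, against 8.23 kb in the 123 genes lower in every TMAO library and 22.0 kb in all genes at or above the floor. Genes over 100 kb made up 17 of the 48 (35.4%), 2 of the 123 (1.63%) and 883 of 7100 (12.4%). The longest of the set was Ptprd at chr4:75941238-78211961, and the next was Rora at chr9:68653786-69388246. Kalrn lies at chr16:33969073-34573532 and Btbd3 at chr2:138256565-138589292. The longest annotated transcript had a median of 5.06 kb in the 48 genes, 2.36 kb in the 123 and 3.28 kb in all, and the median number of its exons was 9.5, 5 and 8. Its G and C content had a median of 47.1% in the 48 genes, 53.2% in the 123 and 50.2% in all.

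Gene length moved with the libraries over all genes as well. In genes of 100 kb or more the median log2 difference of TMAO minus vehicle was 0.22, or 0.082 against vehicle replicates 2 and 3. In genes under 10 kb it was -0.053 and -0.051. Vehicle replicate 1 minus vehicle replicates 2 and 3 gave -0.38 in genes of 100 kb or more and 0.031 in genes under 10 kb. Vehicle replicate 3 minus vehicle replicate 2 gave -0.075 and 0.090 in the same classes. These 2 vehicle libraries thus differed by length about as much as TMAO did from them. The set took 1.93% of the 883 longest genes and 0.366% to 0.590% of the 3 shorter classes. Its largest share is thus in the class in which vehicle replicate 1 was lowest relative to the other vehicle libraries, and the part of that library in this was not tested.

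**Figure D4:**
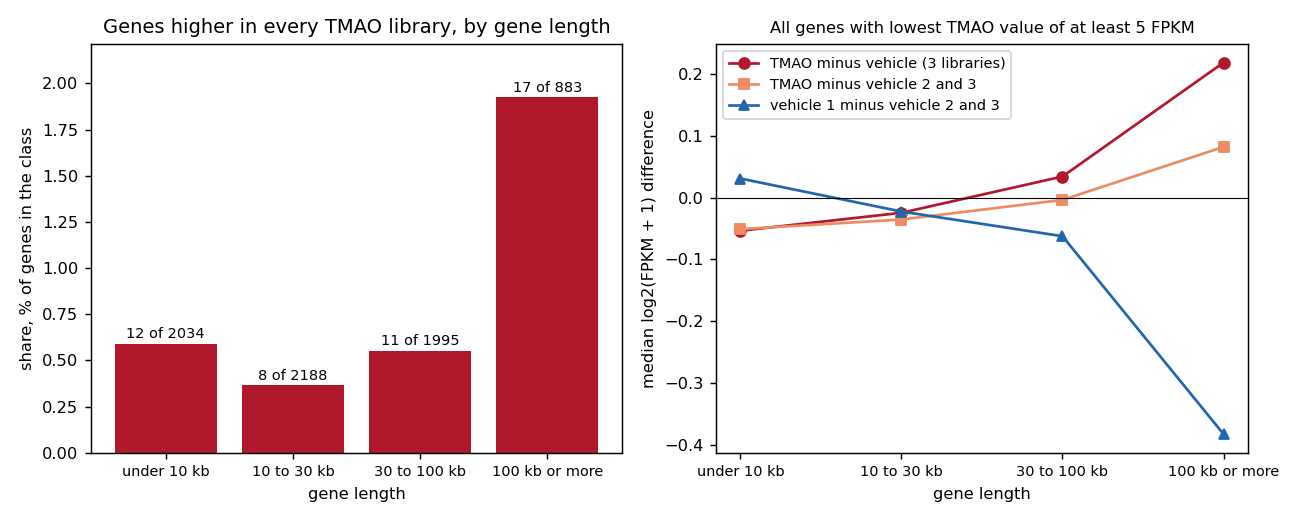
Left, the 48 genes as a share of the genes at or above the 5 FPKM floor in each class of gene length (bars, with the counts). Right, the median log2(FPKM + 1) difference of all genes in each class for TMAO minus vehicle, TMAO minus vehicle replicates 2 and 3, and vehicle replicate 1 minus vehicle replicates 2 and 3; at 100 kb or more these are 0.22, 0.082 and -0.38.

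The genes were spread over the genome, with 4 of the 48 on chromosome X (8.33%, against 3.72% of genes at or above the floor) and Pnisr and Pou3f2, 0.606 Mb apart, as the closest pair. Another annotated gene overlaps 26 of the 48, a protein-coding one in 13. Overlapping pairs were not counted among the other genes at or above the floor, so these counts describe only the 48. No source used here gives the strand setting of the counting, so reads of such pairs may be shared. Ccdc39, on the strand opposite Ttc14, was at 4.70, 4.75 and 4.40 FPKM in the TMAO libraries, against 1.20, 3.03 and 3.52 FPKM in the vehicle libraries, with the vehicle libraries in the same order as in Ttc14. Zc3h14, opposite Eml5, was at 9.47, 10.4 and 10.3 FPKM in the TMAO libraries, against 9.96, 10.4 and 9.19 FPKM in the vehicle libraries, with groups that overlap. Gm48062, also opposite Eml5, was at 9.64, 9.89 and 11.6 FPKM in the TMAO libraries, against 2.18, 5.83 and 5.41 FPKM in the vehicle libraries, and did not overlap. Nor did Gm30177, opposite Nrn1, at 2.84, 6.97 and 7.84 FPKM in the TMAO libraries, against 0.690, 1.69 and 2.70 FPKM in the vehicle libraries. Sgf29, opposite Sult1a1, was at 6.79, 4.54 and 5.20 FPKM in the TMAO libraries, against 5.02, 4.75 and 5.65 FPKM in the vehicle libraries, with groups that overlap.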

How the data were processed

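RNA from brain was sequenced on an Illumina NovaSeq instrument in 3 TMAO and 3 vehicle libraries, per the labels' protocols. The submitters' processing notes name the read trimmer cutadapt 1.9 and the build mm9. The sources used here name no aligner, quantifier or test of the authors. The authors deposited FPKM per gene and library, and their own log2 fold, p-value and q-value, per the file headers. Columns were matched to libraries by the library names in the labels.

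The tables give no read counts. FPKM times length in genes with a single transcript lay within 2% of a whole step in only 18.5% to 20.2% of low values, so reads were not recovered, the depth is unknown, and precision comes from the spread between libraries alone.

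The 14206 genes that reached 1 FPKM in 3 or more libraries entered a two-sided limma 3.58.1 fit (R 4.3.3) on log2(FPKM + 1), using robust estimation and a variance trend. P-values were adjusted over all of them by Benjamini-Hochberg. The script was tested on simulated data. The 48 genes and the gene lists were chosen with earlier results of these data known, and role groups after the values were seen. Named genes were those with the widest separation, the highest TMAO level, or a place on a list or at the threshold, plus 3 named by earlier results (Btbd3, Mettl7a1 and Acot11), and the other genes were added for completeness. Values of 2 of the 48 genes are not reported singly here. Coordinates, found by gene ID, are of GRCm38 (GENCODE M21). Promoter windows are RefSeq's (GRCm38.p6). Alternatives covered thresholds, normalization, pseudocount, filter, a replicate block and leaving out each library. The deposited annotation of gene function was not used here.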

Additional observations from a re-analysis of the deposited data

How the results depend on the processing

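The number of genes higher in every TMAO library, 48 as reported, was 286, 3 and 0 at ratios of at least 1.1, 1.5 and 2, and 97 and 28 at floors of 1 and 10 FPKM. It was 80 after quantile normalization and 89 after scaling to the same median, both with all 48 included, and 64 after rescaling without mitochondrially encoded genes, with 45 of the 48 included; lower genes then numbered 97, 94 and 91. Leaving out 1 library gave 63 to 280 higher genes, or 0.887% to 3.94% of the genes then at or above the floor. Lower genes then numbered 138 to 688 in place of 123. Limma called 0 genes under every alternative run, against 1712 at an unadjusted p under 0.05. The split of these 1712 into 687 higher and 1025 lower was 944 and 845 after quantile normalization, 975 and 768 after median scaling, and 816 and 820 after rescaling without mitochondrially encoded genes. The replicate block gave 0 called genes and 1259 at an unadjusted p under 0.05. Deviations of libraries with the same number correlated at -0.22, -0.064 and -0.015, and those with different numbers at -0.27 to 0.24. Deviations from a mean of 3 libraries depend on each other, so these values cannot decide whether the numbers pair the libraries. The median log2 difference of the 48 genes, 0.87, was 0.99 and 0.65 at pseudocounts of 0.1 and 5, 0.92 to 0.94 after the 3 normalizations, and 0.58 to 1.06 with 1 library left out, lowest without vehicle replicate 1.

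With 3 libraries a group and no read counts, these values can be judged by the spread between libraries alone. No source used here says whether libraries are separate animals.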
